A study of Mus musculus with 9 samples.

Results

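The mRNA levels of 10 genes of MHC class I presentation were followed in mouse bone marrow-derived macrophages (BMDMs) at rest (M0), after classical activation (M1) and after classical activation with photobiomodulation (M1 + PBM). The genes were taken by symbol, by a rule that uses no measured value, though with earlier results of these data known, and are 10 of the 55655 rows of each deposited table. They are the class I heavy chains H2-K1 and H2-D1 with their light chain B2m, the peptide loading genes Tap1, Tap2 and Tapbp, the immunoproteasome subunits Psmb8, Psmb9 and Psmb10, and the transactivator Nlrc5. Their Ensembl identifiers in the tables are, in that order, ENSMUSG00000061232, ENSMUSG00000073411, ENSMUSG00000060802, ENSMUSG00000037321, ENSMUSG00000024339, ENSMUSG00000024308, ENSMUSG00000024338, ENSMUSG00000096727, ENSMUSG00000031897 and ENSMUSG00000074151. All 10 were present in both tables and all 10 passed the filter on low values.

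RNA-seq was performed on 3 libraries per group, 9 in all, each labelled as wild-type C57BL/6 macrophages from the femur and tibia of mice aged 6 to 8 weeks. In every group the marrow cells were matured for 7 days in medium with M-CSF, a macrophage growth factor, at 10 ng/mL. M0 cells received no further stimulus, and the time at which their RNA was taken is not given. M1 and M1 + PBM cells were given bacterial lipopolysaccharide (LPS) at 100 ng/mL with interferon-γ (IFN-γ) at 20 ng/mL, and RNA was taken at 12 hours. M1 + PBM cells were also irradiated in a dark box with an 808 nm laser at 6 mW/cm2 for 7 minutes, at intervals of 12 hours. According to the paper, control cells stood in the dark box as well, without irradiation. Whether the replicates came from separate mice or separate cultures is not given in the labels, so p-values measure the spread between these libraries, which may be technical.

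MHC class I molecules display peptides from the inside of the cell to CD8+ T cells and natural killer cells. Proteasomes cut the proteins into peptides, the TAP transporter pumps the peptides into the endoplasmic reticulum, and a loading complex fits them into a heavy chain paired with β2-microglobulin. IFN-γ is a classical inducer of the whole pathway in macrophages. It also exchanges the catalytic subunits of the standard proteasome for those of the immunoproteasome and induces NLRC5, a coactivator that is recruited to class I promoters. LPS is known to contribute through NF-κB and through type I interferon.

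The DNA just before the gene starts is shown first for the class I chains, whose windows hold the same spaced pair of motifs, and for Psmb9 and Tap1, which share 1 region between their starts. RefSeq windows on GRCm38.p6 were found for 8 of the 10 genes. Tap2 and Nlrc5 had no entry. The 250 bases that end at the start of H2-K1 lie on the minus strand at chr17:34000348-34000597. Those of H2-D1 are at chr17:35262844-35263093 and those of B2m at chr2:122147437-122147686, both on the plus strand. For H2-K1, 2 starts were listed and the most upstream was used. Psmb9 and Tap1 start back to back, and the 225 bases between their starts, chr17:34187331-34187555, are written on the plus strand, toward Tap1. Capitals mark every match, on either strand, to the IRF or ISRE core (GAAA, then 2 bases of any kind, then GAAA), the GAS motif TTCNNNGAA, the NF-κB consensus, the NF-Y motif CCAAT or the CRE half-site TGACG. On the opposite strand CCAAT reads ATTGG.
H2-K1: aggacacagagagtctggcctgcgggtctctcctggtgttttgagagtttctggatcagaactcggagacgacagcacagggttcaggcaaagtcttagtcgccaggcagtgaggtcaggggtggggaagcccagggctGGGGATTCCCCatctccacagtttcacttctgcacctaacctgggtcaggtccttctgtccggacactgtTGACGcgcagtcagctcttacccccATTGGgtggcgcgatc
H2-D1: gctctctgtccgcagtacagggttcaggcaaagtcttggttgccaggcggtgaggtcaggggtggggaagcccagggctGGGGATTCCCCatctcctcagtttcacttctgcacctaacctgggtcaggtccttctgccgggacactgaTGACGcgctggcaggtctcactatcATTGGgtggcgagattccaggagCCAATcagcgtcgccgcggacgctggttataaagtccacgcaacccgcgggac
B2m: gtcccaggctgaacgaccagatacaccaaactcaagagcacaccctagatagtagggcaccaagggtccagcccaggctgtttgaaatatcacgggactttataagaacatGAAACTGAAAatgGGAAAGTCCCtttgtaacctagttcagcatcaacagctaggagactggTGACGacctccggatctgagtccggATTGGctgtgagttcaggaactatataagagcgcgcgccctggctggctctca
Psmb9-Tap1: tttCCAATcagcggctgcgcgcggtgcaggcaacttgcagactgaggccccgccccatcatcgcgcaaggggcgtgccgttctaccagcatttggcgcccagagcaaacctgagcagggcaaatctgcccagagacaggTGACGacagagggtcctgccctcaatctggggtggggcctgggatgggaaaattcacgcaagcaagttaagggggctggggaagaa

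Class I promoters are known for a shared module that is contacted by the RFX complex, by CREB or ATF and by NF-Y, which binds CCAAT, and for an upstream NF-κB element. The windows of H2-K1, H2-D1 and B2m each held TGACG followed, after 20 bases, by ATTGG. This spacing was noticed in the sequences and then searched for in all windows. It was found in 0.0913% of the 32851 RefSeq windows (30 windows), among them that of the class I-like gene H2-M3. The NF-κB consensus matched in the same 3 of the 8 windows, against 7.25% of all windows. In H2-K1 and H2-D1 it matched on both strands, in overlapping stretches that begin 70 bases before TGACG in both windows. TGACG began at -41 from the start used for H2-K1 and at -101 in H2-D1, so the H2-K1 window ends nearer to these sites.

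Without gaps, 166 of 190 bases (87.4%) were identical between the H2-K1 and H2-D1 windows, so these are not independent examples. CCAAT matched in 6 of the 8 windows (33.8% of all windows) and TGACG in 5 of the 8 (17.8%), but the Psmb9 and Tap1 windows share their sites, which are counted in both. The IRF or ISRE core matched only B2m (2.98%), where it lies just before the NF-κB match. The GAS motif matched only Psmb8 (7.02%). The Psmb10 window held none of the 5 motifs. Such a match describes letters and not a bound site. Only these exact patterns were searched, so a window without a match may still hold a variant of a motif.

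Depth was estimated from the spacing of the low FPKM values at 31270000 to 42810000 fragments per library. Only 29.0% to 30.9% of these low values lay at whole multiples of 1 fragment, so the depths are rough. At these depths the smallest upper estimate behind a member was 386 fragments (Psmb9 in M0 replicate 2). FPKM is scaled by transcript length and by library size, so levels can be compared between genes. The 8 macrophage markers, among them Adgre1 and Csf1r, were at an FPKM of 1 or more in every library, with a summed FPKM of 5499 to 10341. Summed FPKM was at most 28.1 over 7 neutrophil markers (S100a9 was listed at 0 throughout), 1.23 over 6 dendritic cell markers, 0.491 over 6 lymphoid markers and 0.272 over 4 erythroid markers. In bulk RNA, fewer cells of a type and less RNA per cell cannot be told apart. The M0 libraries were deposited in a table of their own, so that levels set across the tables are described without a test, and the stimulus and a difference between the tables cannot be told apart.

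One M0 library stood apart. M0 replicate 3 was the highest M0 library for 9 of the 10 members, where it was the highest for 38.3% of the rows with a mean M0 FPKM of at least 1. It was at least 1.5 times the mean of M0 replicates 1 and 2 for 8 of the 10 members (11.0% of rows). Its fold over that mean ran from 1.04 for H2-D1 to 2.47 for Tap1. The median was 1.60 over the members and 0.990 over the rows with a mean M0 FPKM of at least 1. The chemokine Cxcl10 had an FPKM of 16.1 there against 0.491 and 0.154. The summed FPKM of 8 M1 response genes was 14.95 to 66.9 in M0, highest in replicate 3, against 1429 to 1665 in M1. In M1 + PBM this sum was 1139 to 1331. The summed FPKM of 5 stromal markers was 5.33 to 179.0 in M0, again highest in replicate 3, where Col1a1, a fibroblast collagen, was at 122.8 against 4.44 and 3.44. In M1 the stromal sum was 12.4 to 13.8 and in M1 + PBM 6.15 to 25.5. The part of these markers in the M0 levels was not tested, and the folds over M0 are given with and without M0 replicate 3.

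The question of the first comparison was how class I genes differ between resting and classically activated macrophages. All 10 members were higher in every M1 library than in every M0 library, and the same held for M1 + PBM against the same M0 libraries. Separation in this direction was seen for 15.6% of all rows in M1 and 15.9% in M1 + PBM. Against M0, shares of all rows and unscaled medians are over 13915 rows. These reached an FPKM of at least 1 in 3 or more of the 9 libraries. The fold of mean FPKM in M1 over M0 had a median of 5.44 over the members, while the median over all rows was 0.732, a log2 shift of -0.45. In M1 + PBM, which shares its M0 libraries with this contrast, the corresponding medians were 5.22 and 0.778 (a log2 shift of -0.36). In M1, 9 members were at least 2-fold higher (10.2% of rows) and 7 at least 4-fold (5.53% of rows). In M1 + PBM these counts were again 9 (9.49% of rows) and 7 (4.97%). Scaling all 9 libraries by the median of ratios brought the median over all rows to a log2 of -0.03 in M1 and gave a members' median of 7.24-fold, and without M0 replicate 3 the count at 4-fold or more was 8.

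**Figure D1:**
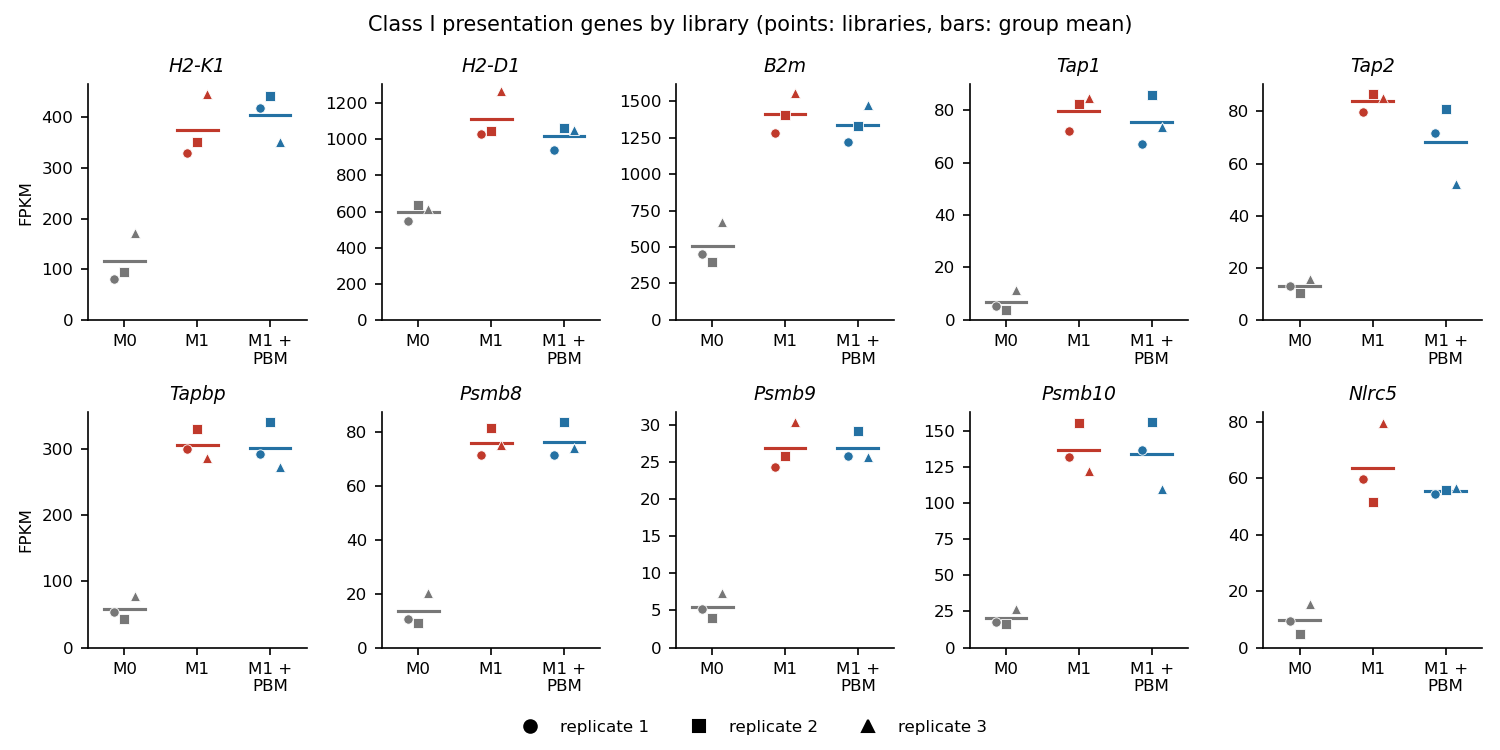
FPKM of the 10 members in each library, on linear axes from 0, with 1 panel per gene, points for the 3 replicates of M0 (grey), M1 (red) and M1 + PBM (blue), and a bar at the group mean. All 10 genes lie above M0 in every activated library, M0 replicate 3 (grey triangle) is the highest M0 point in 9 panels, and the ranges of the red and blue points overlap in every panel.

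The class I chains were the most abundant members and had the smallest folds over M0. H2-K1, a classical heavy chain, had an FPKM of 80.5, 94.0 and 172.0 in the M0 libraries (replicates 1 to 3), 330.3, 351.3 and 446.9 in M1, and 419.5, 443.4 and 350.7 in M1 + PBM. The highest M0 library stayed below the lowest activated one, and M1 and M1 + PBM interleaved. Its mean was 3.26-fold higher in M1 (4.31-fold without M0 replicate 3) and 3.50-fold higher in M1 + PBM (4.64-fold without it).

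H2-D1, the other classical heavy chain of this strain, had an FPKM of 547.0, 634.3 and 615.4 in M0, 1033, 1045 and 1268 in M1, and 940.5, 1065 and 1053 in M1 + PBM. Already high at rest, its mean was 1.86-fold higher in M1 (1.89-fold without M0 replicate 3) and 1.70-fold higher in M1 + PBM (1.73-fold without it), the smallest fold of the 10 members in both. Scaling by the median of ratios gave 2.49-fold and 2.13-fold. It was also the member that M0 replicate 3 moved least.

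B2m encodes the light chain that pairs with class I heavy chains. In M0 its FPKM was 454.1, 399.2 and 673.7, in M1 1280.5, 1406 and 1558, and in M1 + PBM 1219.9, 1329 and 1473. Its mean was 2.78-fold higher in M1 (3.32-fold without M0 replicate 3) and 2.63-fold higher in M1 + PBM (3.14-fold without it). The order of the chains was not the same at rest and after activation. In M0 the mean of H2-D1 was above that of B2m, but this order held in 2 of 3 libraries and the ranges overlapped. In M1 and in M1 + PBM, B2m was above H2-D1 in 3 of 3 libraries without overlap.

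The 2 heavy chains also differed from rest by unequal folds. The ratio of H2-K1 to H2-D1 within a library, a quantity that does not depend on how libraries are scaled, was 0.147, 0.148 and 0.279 in M0. It was 0.320 to 0.352 in M1 and 0.333 to 0.446 in M1 + PBM, so that every activated library was above every M0 library. This ratio was chosen after the values were seen. H2-K1, H2-D1 and several genes of the Q and T regions are related in sequence. Fragments may be shared out between them in a way that the FPKM values do not show. Levels of single class I chains are uncertain for that reason.

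Of the peptide loading genes, Tap1 had the largest fold. It encodes a subunit of the TAP peptide transporter and had an FPKM of 5.36, 3.90 and 11.5 in M0, 72.2, 82.4 and 84.8 in M1, and 67.2, 85.7 and 73.4 in M1 + PBM. Every activated library was far above M0, and M0 replicate 3 stood more than 2-fold above the other M0 libraries. The mean was 11.6-fold higher in M1 and 10.9-fold higher in M1 + PBM, the largest fold of the 10 members. Without M0 replicate 3 it was 17.2-fold in M1 and 16.3-fold in M1 + PBM, and in M1 it was 6.97-fold against M0 replicate 3 alone.

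Tap2, the partner of Tap1 in the transporter, had an FPKM of 12.9, 10.4 and 15.5 in M0, 79.97, 86.6 and 85.2 in M1, and 71.7, 80.9 and 52.3 in M1 + PBM. Its lowest activated value, M1 + PBM replicate 3, was still more than 3 times its highest M0 value. The mean was 6.48-fold higher in M1 (7.20-fold without M0 replicate 3) and 5.28-fold higher in M1 + PBM (5.86-fold without it).

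The transporter is a heterodimer, and the ratio of its subunits' levels differed between rest and activation. Tap1 over Tap2 was 0.415, 0.374 and 0.738 in M0, 0.903 to 0.995 in M1 and 0.938 to 1.40 in M1 + PBM. The M0 libraries did not overlap with the activated ones. This pair too was chosen after the values were seen.

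Tapbp encodes tapasin, which bridges TAP and the empty class I molecule. Its FPKM was 54.4, 43.3 and 77.8 in M0, 299.7, 330.2 and 286.0 in M1, and 292.8, 340.6 and 273.0 in M1 + PBM. The groups M1 and M1 + PBM ordered their replicates the same way, replicate 2 highest and replicate 3 lowest. The mean was 5.22-fold higher in M1 (6.25-fold without M0 replicate 3) and 5.16-fold higher in M1 + PBM (6.19-fold without it).

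The immunoproteasome subunits were 4.90-fold to 6.74-fold higher in M1 than in M0. Psmb8 (LMP7) replaces the chymotrypsin-like subunit of the standard proteasome. Its FPKM was 10.7, 9.30 and 20.2 in M0, 71.4, 81.6 and 75.4 in M1, and 71.5, 83.7 and 74.1 in M1 + PBM. The M1 and M1 + PBM values were nearly superimposed, and the mean was 5.67-fold above M0 in M1 and 5.69-fold in M1 + PBM (7.60-fold and 7.63-fold without M0 replicate 3).

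Psmb9 (LMP2) shares its promoter region with Tap1, shown above. It had the lowest level of the 10 members in all 3 groups, with an FPKM of 5.15, 3.94 and 7.32 in M0, 24.3, 25.8 and 30.4 in M1, and 25.8, 29.2 and 25.7 in M1 + PBM. The mean was 4.90-fold higher in M1 (5.90-fold without M0 replicate 3) and 4.92-fold higher in M1 + PBM (5.92-fold without it). Although the genes start 225 bases apart, the fold of Tap1 in M1 was 11.6, and the levels of Tap1 and Psmb9 overlapped in M0 but not after activation. The libraries are labelled strand-specific, but whether the strand was used in counting is not given in the sources used here.

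Psmb10 (MECL-1) was the most abundant of the 3 subunits in every group, with an FPKM of 17.7, 16.2 and 26.9 in M0, 132.2, 155.6 and 122.2 in M1, and 136.8, 156.0 and 110.0 in M1 + PBM. As for Tapbp, replicate 2 was highest and replicate 3 lowest in both activated groups. The mean was 6.74-fold higher in M1 (8.05-fold without M0 replicate 3) and 6.62-fold higher in M1 + PBM (7.90-fold without it).

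The standard subunits that these replace, Psmb5, Psmb6 and Psmb7 in the order of Psmb8, Psmb9 and Psmb10, were 1.51-fold, 2.05-fold and 1.47-fold higher in M1, without overlap with M0 (1.70-fold, 2.22-fold and 1.65-fold without M0 replicate 3). The ratio of Psmb8 to Psmb5 within a library was 0.200 ± 0.048 in M0, 0.781 ± 0.104 in M1 and 0.712 ± 0.051 with PBM (SD, n = 3 each). That of Psmb9 to Psmb6 was 0.0712 ± 0.0148, 0.175 ± 0.042 and 0.192 ± 0.0058. That of Psmb10 to Psmb7 was 1.38 ± 0.13, 6.49 ± 1.43 and 6.38 ± 1.54. From M0 to M1 the geometric means of the ratios differed 3.95-fold, 2.45-fold and 4.64-fold, and all 3 were higher in every activated library than in every M0 library. On the mRNA scale only the pair of Psmb10 and Psmb7 had more of the inducible subunit than of the standard one, and it did so already at rest.

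**Figure D2:**
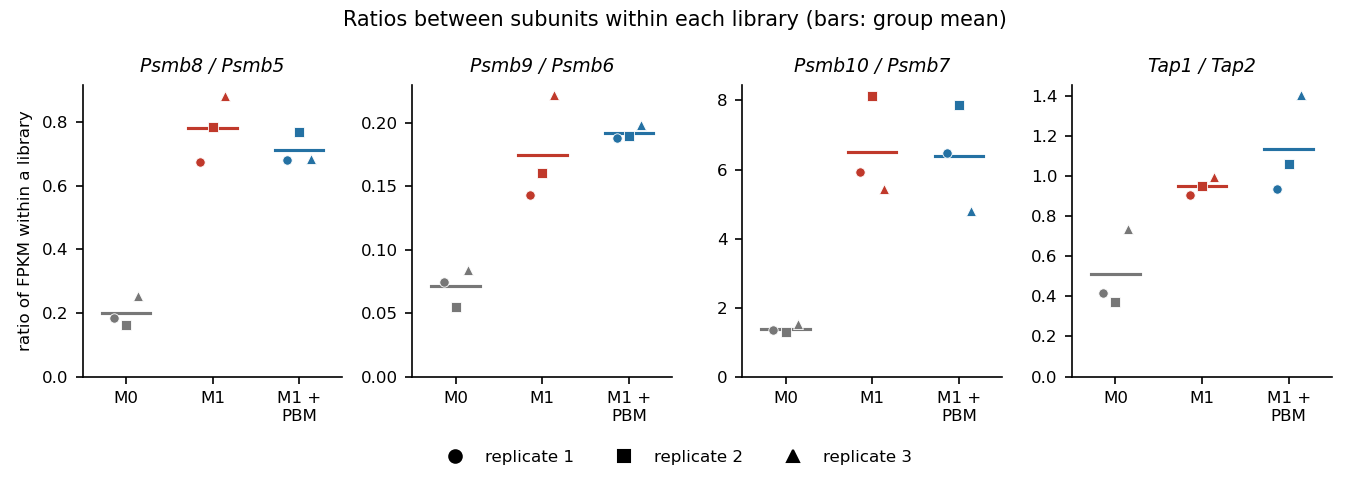
Ratio of FPKM within each library (linear axes from 0) for the 3 immunoproteasome subunits over the standard subunits they replace and for Tap1 over Tap2, with points for the 3 replicates of each group and a bar at the group mean. In every panel the M0 points lie below all activated points, and the M1 and M1 + PBM points overlap.

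Nlrc5, the class I transactivator, had an FPKM of 9.51, 4.81 and 15.4 in M0, 59.8, 51.7 and 79.7 in M1, and 54.3, 55.9 and 56.6 in M1 + PBM. Its M1 libraries were spread over a range that contained all 3 M1 + PBM libraries, which lay close together. The mean was 6.44-fold higher in M1 (8.90-fold without M0 replicate 3) and 5.62-fold higher in M1 + PBM (7.76-fold without it). Ciita, the class II counterpart of Nlrc5, overlapped between M0 and M1, with 0.726 to 4.27 in M0 and 0.448 to 4.56 in M1.

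The order of levels in M1 was B2m, H2-D1, H2-K1, Tapbp, Psmb10, Tap2, Tap1, Psmb8, Nlrc5 and Psmb9. Neighbours from B2m down to Psmb10 and Tap2 did not overlap, while Tap2 and Tap1, Tap1 and Psmb8, and Psmb8 and Nlrc5 overlapped in range, and Nlrc5 and Psmb9 did not. In M0 the order was H2-D1, B2m, H2-K1, Tapbp, Psmb10, Psmb8, Tap2, Nlrc5, Tap1 and Psmb9, and from Psmb10 down every neighbouring pair overlapped. Tap1 stood in the ninth place in M0 and in the seventh in M1. In M1 + PBM, Psmb8 stood before Tap1 and Tap2, with overlap between these neighbours.

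A wider list of 49 genes of the pathway was read beside the members. Of these, 45 had a mean FPKM of at least 1 in at least 1 group, and 17 of the 45 were at least 2-fold higher in M1 than in M0 (10.2% of all rows), 13 of them at least 4-fold (5.53%). At least 2-fold lower were 4 of the 45 (24.2% of all rows). In M1 + PBM against the same M0 libraries, 16 were at least 2-fold higher (9.49% of all rows) and 1 was at least 2-fold lower (19.6% of all rows). The other class I and class I-like chains held most of the higher genes, with 9 of 12 at least 2-fold higher in M1. H2-Q1, H2-Q2, H2-Q10 and H2-T3 were below a mean FPKM of 1 in every group.

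The 3 largest folds of the wider list were all of class I chains with little mRNA at rest. H2-M2, a class I-like chain of the M region, had an FPKM of 0.546, 0.737 and 3.70 in M0, 111.0, 166.3 and 15.2 in M1, and 55.1, 115.9 and 9.60 in M1 + PBM. Replicate 3 was by far the lowest library of both activated groups and the highest of M0. Its mean was 58.6-fold higher in M1, or 151.9-fold without M0 replicate 3.

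H2-Q7, which encodes the nonclassical Qa-2 antigen, had an FPKM of 0.405, 0.110 and 3.57 in M0, 29.3, 50.5 and 87.5 in M1, and 21.6, 38.2 and 41.0 in M1 + PBM. H2-Q6 had 0.702, 0.235 and 9.19 in M0, 58.3, 89.7 and 191.2 in M1, and 45.2, 63.5 and 87.1 in M1 + PBM. Replicate 3 was the highest library of each group for both genes, which are near copies of each other. Their means were 41.0-fold and 33.5-fold higher in M1, or 216.3-fold and 241.4-fold without M0 replicate 3.

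Among the other roles, the proteasome activator PA28 was split. Psme1 and Psme2, its interferon-inducible subunits, were 4.43-fold and 6.29-fold higher in M1 (4.95-fold and 8.14-fold without M0 replicate 3), while Psme3, which forms a separate nuclear activator, was at 0.898-fold (0.987-fold) with overlapping groups. Tapbpl (TAPBPR, a tapasin-related peptide editor) was 4.88-fold higher (5.42-fold without that library) and the trimming peptidase Erap1 1.73-fold (1.88-fold). The general chaperones Calr and Canx were at 0.711-fold and 0.828-fold (0.806-fold and 0.849-fold without it), and with all M0 libraries a log2 of -0.49 and -0.27 where the median row was at -0.45. Of the interferon signalling genes, the kinase gene Jak2 was 10.6-fold higher in M1 (13.4-fold without M0 replicate 3). The transcription factor gene Irf1 was 3.14-fold higher (4.57-fold). Ifngr2 was 1.97-fold higher (2.01-fold), and Irf2 and Jak1 were each 1.24-fold higher (each 1.20-fold). Irf8 was at 0.555-fold (0.464-fold), with overlapping groups. The genes of this paragraph, with Ciita, were named for their roles after their values were seen.

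The genes of the wider list that stood lowest against M0 were Ifngr1, Rfxap and Fcgrt. Ifngr1, the ligand-binding chain of the IFN-γ receptor, had an FPKM of 19.8, 22.4 and 25.3 in M0 and 8.73, 7.42 and 7.57 in M1, which is 0.351 of its M0 mean. Rfxap, a subunit of the RFX complex, was at 0.382 of its M0 mean and Fcgrt, the class I-like neonatal Fc receptor that pairs with B2m, at 0.407. Rfxap was low throughout, with an FPKM of 2.11 to 2.41 in M0 and 0.635 to 0.999 in M1, and did not pass the filter on low values. Without M0 replicate 3 the shares were 0.374, 0.391 and 0.345. All 3 lay below M0 without overlap, a pattern seen for 50.6% of all rows in this contrast.

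**Figure D3:**
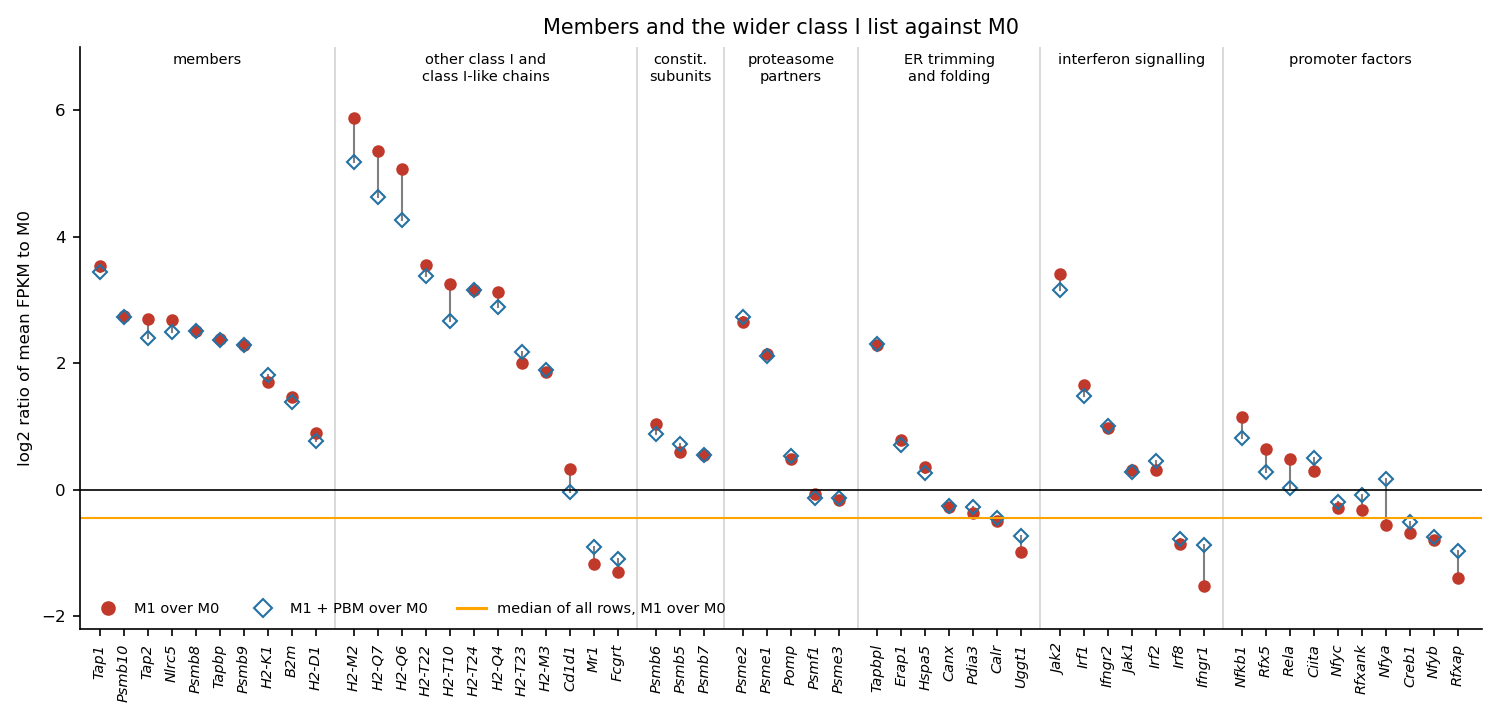
Log2 ratio of mean FPKM to M0 (3 libraries per group) for the 10 members and for the genes of the wider list reported here with a mean FPKM of at least 1, grouped by role, with filled circles for M1 and open diamonds for M1 + PBM. All members lie above 0 in both groups, from H2-D1 (0.90 in M1) to Tap1 (3.53), while the median of all rows in M1 (orange line) is at -0.45.

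The second comparison asked what PBM changed in M1 macrophages. None of the 10 members passed the thresholds of the study, an unadjusted p of at most 0.05 with a log2 fold change of at least 1 in size, in limma on log2(FPKM + 1). Over all rows 0.261% passed (32 of 12238). That number is from limma and is not the larger number of genes that the paper reported at these thresholds. This count was 75 with a pseudocount of 0.1, 67 when M1 replicate 2 was left out and 89 when M1 + PBM replicate 2 was. None passed at an unadjusted p of at most 0.05 alone (4.44% of rows) or at a Benjamini-Hochberg adjusted p under 0.05 (0.00817% of rows, 1 gene). The groups M1 and M1 + PBM overlapped for all 10 members, where 11.0% of rows did not overlap. Adjusted p-values from limma ran from 0.90 to 0.99, unadjusted ones from 0.110 to 0.967, and exact two-sided permutation p-values from 0.2 to 1, where 3 libraries against 3 can give no p below 0.1. With the replicate number as a block, the lowest unadjusted p of a member was 0.080 (Tap2).

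The intervals, from the fit without the replicate block, show what that fit could have missed. The 95% intervals of the 10 log2 fold changes lay between -0.73 and 0.50, so each excluded a change of 2-fold in either direction on this scale. They were narrowest for Psmb8, with a log2 fold change of 0.0046 (SE 0.11) and an interval from 16.4% lower to 20.4% higher. Psmb9 gave 0.0073 (SE 0.12), Tapbp -0.018 (SE 0.13) and Psmb10 -0.033 (SE 0.16), with signs that changed with scaling or with the library left out. With the replicate block the members' SE ran from 0.071 (Psmb8) to 0.17 (H2-K1), against 0.11 to 0.17 without it.

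For the chains, H2-K1 gave a log2 fold change of 0.11 (SE 0.16, interval -0.28 to 0.50), H2-D1 -0.13 (SE 0.13, -0.44 to 0.19) and B2m -0.078 (SE 0.13, -0.40 to 0.24). H2-K1 was the only member with a positive value above 0.01, and it was higher with PBM in replicates 1 and 2 and lower in replicate 3. Nlrc5 gave -0.17 (SE 0.17, -0.57 to 0.23) and Tap1 -0.084 (SE 0.13, -0.39 to 0.23).

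Tap2 had the largest difference, -0.32 (SE 0.17, interval -0.73 to 0.095, limma adjusted p = 0.90, exact permutation p = 0.2). Tap2 was lower with PBM in 3 of 3 replicate pairs, by 0.16, 0.096 and 0.69 on the log2 scale. Without M1 + PBM replicate 2 its unadjusted p was 0.0377, with a log2 fold change of -0.45. Without M1 + PBM replicate 3 the difference was -0.14. Most of the difference came from M1 + PBM replicate 3, whose Tap2 FPKM of 52.3 was the lowest activated value.

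The 3 replicate pairs differed. The members' median log2 change was -0.052 in replicate 1, 0.040 in replicate 2 and -0.22 in replicate 3, where all rows had 0.032, 0.013 and 0.13. With PBM, 6 of 10 members were lower in replicate 1 (43.6% of rows), 2 of 10 in replicate 2 (45.4%) and 10 of 10 in replicate 3 (31.9%). Lower in 3 of 3 pairs were 2 of 10 members, Tap2 and B2m (10.1% of rows), and the changes of B2m were -0.070, -0.082 and -0.081. Each count for a single replicate compares 1 library with 1 library, so it has no replicate check. Over the 3 replicates 7 of 10 members had a log2 fold change below 0 (34.4% of rows), which became 9 with median-of-ratios scaling and 5 with quantile normalization. The members' median was -0.055, against 0.058 over all rows tested.

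**Figure D4:**
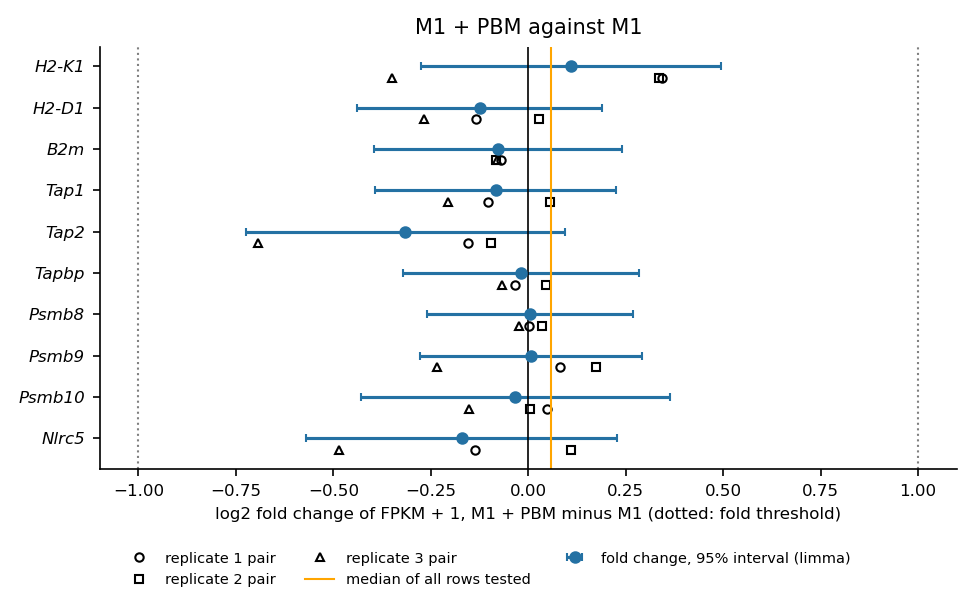
Log2 fold change of FPKM + 1 between M1 + PBM and M1 for the 10 members, with filled points and 95% intervals from limma (n = 3 per group) and open symbols for the 3 replicate pairs. Every interval crosses 0 and stays inside the fold threshold (dotted lines at 1 and -1), and the replicate 3 pair (triangles) is below 0 for all 10 genes. The signs of Psmb8, Psmb9, Tapbp and Psmb10 changed with the scaling used.

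The proteasome ratios gave no difference past the spread between libraries. From M1 to M1 + PBM the log2 ratio differed by -0.13 (SE 0.13) for Psmb8 over Psmb5, by 0.16 (SE 0.19) for Psmb9 over Psmb6 and by -0.032 (SE 0.27) for Psmb10 over Psmb7. The exact two-sided permutation p-values were 0.4, 0.5 and 0.9. Tap1 over Tap2 (exact p = 0.3) and H2-K1 over H2-D1 (exact p = 0.3) each differed by 0.24, with SE of 0.18 and 0.13. Over the 7 ratios computed, the lowest Benjamini-Hochberg adjusted exact p was 0.7.

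Of the wider list, 44 genes were tested in limma. At an unadjusted p of at most 0.05 there were 3, none of them past the fold threshold or at an adjusted p under 0.05. Higher with PBM were 2 of the 44 (2.99% of rows) and lower was 1 (1.45%). Ifngr1 had an FPKM of 8.73, 7.42 and 7.57 in M1 and 12.4, 10.8 and 13.9 in M1 + PBM. The groups did not overlap, with a log2 fold change of 0.58 (SE 0.12, limma p = 0.0026, adjusted p = 0.90, exact permutation p = 0.1). It lay between M1 and M0 in level, at 0.549 of its M0 mean.

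Nfya, the DNA-contacting subunit of NF-Y, had 7.27, 7.96 and 8.08 in M1 and 14.2, 8.73 and 15.6 in M1 + PBM, a log2 fold change of 0.62 (SE 0.21, limma p = 0.021, adjusted p = 0.90, exact permutation p = 0.1). Its unadjusted p was above 0.05 without M1 replicate 1, M1 + PBM replicate 1 or M1 + PBM replicate 3. Rela, the p65 subunit of NF-κB, had 29.3, 37.0 and 33.7 in M1 and 26.7, 23.97 and 22.5 in M1 + PBM, a log2 fold change of -0.43 (SE 0.12, limma p = 0.011, adjusted p = 0.90, exact permutation p = 0.1). Both genes separated the groups, and 0.1 is the smallest exact p that 3 against 3 can give. Separation was seen for 2 genes of the list upward (8.51% of rows) and 1 downward (2.52%), the same 3 genes.

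With the replicate number as a block, 7 of the 44 genes had an unadjusted p of at most 0.05 (8.07% of rows) and none an adjusted p under 0.05. The 4 that were added are class I chains, all lower with PBM in 3 of 3 pairs, with block p-values in limma of 0.0023 for H2-M2, 0.013 for H2-Q6, 0.013 for H2-Q7 and 0.015 for H2-T10, and an adjusted p of 0.58 for each. H2-T10, H2-Q4 and H2-T22 were named after their values were seen. Their log2 fold changes were -0.71 for H2-M2, -0.66 for H2-Q6, -0.63 for H2-Q7 and -0.48 for H2-T10. Of the 12 other class I and class I-like chains tested, 6 were lower in 3 of 3 pairs (10.1% of rows). They were these 4 with H2-Q4 (log2 fold change -0.23) and H2-T22 (-0.16). Fragments may be shared between such chains, and H2-Q6 and H2-Q7 are near copies, so these are not 6 separate observations. Without the block the unadjusted p-values from limma were 0.56, 0.19, 0.18 and 0.21 for the 4 genes in that order, and the replicates of a group lay far apart, as in H2-M2, where M1 ran from 15.2 to 166.3.

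Within the 6 activated libraries the members did not form 1 block. Over the 45 pairs of members, Pearson's r of log2(FPKM + 1) ran from -0.47 (Psmb10 and Nlrc5) to 0.96 (Tapbp and Psmb10), with a median of 0.36 and 37 pairs above 0. These are descriptions over 6 libraries that share their groups and pairs. The mean profile of the members was highest in M1 replicate 3 (0.13 above its mean) and lowest in M1 + PBM replicate 3 (-0.12). The 8 genes outside the lists with the most similar profile were Fmr1 (r = 0.987), Gm41077 (0.987), Heca (0.979), Slfn2 (0.970), Gadd45b (0.966), Gm43964 (0.966), Shisa3 (0.965) and Sp110 (0.964). Over all 12238 rows, 87 had an r above 0.9 with this profile.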

How the data were processed

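The authors deposited FPKM values, in 1 table for the 3 M0 libraries and 1 for the 3 M1 and 3 M1 + PBM libraries. Total RNA was made into strand-specific TruSeq libraries and sequenced on an Illumina HiSeq instrument. The study's methods name Cufflinks methods for expression, and the submitters' processing notes list Bowtie 0.12.2 and mm9. Row identifiers were matched to symbols through GENCODE M21, a different build, so no coordinates were tied to FPKM values. Symbols were found for 55154 of 55655 rows. Of the others, 320 have MSTRG identifiers in place of Ensembl ones, and 181 have Ensembl identifiers without a symbol.

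The members and lists were chosen with earlier results of these data known. The wider list has 49 genes, of which the text names the standard subunits, those at an unadjusted p of at most 0.05, and the 3 largest rises and falls from M0 to M1. Further genes named after their values were seen are marked as such in the text. M1 + PBM and M1 were compared with limma 3.58.1 (R 4.3.3, eBayes with a trend) on log2(FPKM + 1), over the 12238 rows that reached an FPKM of 1 in 3 or more of the 6 libraries, with Benjamini-Hochberg adjustment over all of them. The values of 1 gene of the wider list are not reported here. The pseudocount understates changes of low genes. The code was tested on simulated data. No test crossed the tables. Only 29.0% to 30.9% of low values were whole multiples of 1 fragment within 0.05 (even spread would give 10%), so reads were not recovered and no count test was run. FPKM sums hold 30.9% to 37.8% in the top 3 rows of a library. Alternatives were the pseudocount, filters, scaling, variance model, replicate block and each library left out.

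Replicate numbers come from the sample titles and were checked as pairs. Deviations from the group mean correlated at 0.157, 0.469 and 0.462 between same-numbered M1 and M1 + PBM libraries and at -0.491 to 0.033 between others, so the replicate block was treated as pairing the libraries. The main fit, its intervals and the exact tests quoted leave this pairing out.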

Additional observations from a re-analysis of the deposited data

How the results depend on the processing

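No member passed the thresholds for M1 + PBM against M1 under any alternative run. Over all genes the count of 32 became 75 with a pseudocount of 0.1, and 27 to 89 when 1 library was left out (67 without M1 replicate 2, 89 without M1 + PBM replicate 2). The wider list's count of 0 became 2 without M1 replicate 1 (range 0 to 2). The log2 fold change changed sign for Psmb8 (-0.070) and Psmb9 (-0.065) with median-of-ratios scaling and for Tapbp (0.059) and Psmb10 (0.023) with quantile normalization. Leaving out 1 library gave -0.062 to 0.055 for Psmb8, -0.058 to 0.097 for Psmb9, -0.11 to 0.051 for Tapbp and -0.15 to 0.10 for Psmb10, and -0.20 to 0.16 for the log2 ratio of Psmb10 to Psmb7. The cause of these shifts was not tested, and all were smaller than the SE of the gene or ratio concerned. In the paired fit with the replicate block no member passed (Tap2, log2 fold change -0.32, limma p = 0.080, exact permutation p = 0.2 without the block). The block gave 7 unadjusted calls in the wider list in place of 3. Over all genes it gave 45 calls by the thresholds in place of 32, and 988 in place of 543 by the unadjusted p alone. The block changed no other call among the results named here. Against M0, every member was higher under each alternative, and the largest shifts came from median-of-ratios scaling over 9 libraries (H2-D1, log2 1.32 in M1 and 1.09 in M1 + PBM) and from leaving out M0 replicate 3. The fragments behind each gene were estimated only as upper limits at the fitted depths. The share of counting error in the intervals was not tested.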
